A study of Schizosaccharomyces pombe with 4 samples.

Results

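The 10 genes described here encode the heat shock factor of fission yeast (*Schizosaccharomyces pombe*) and 9 heat shock proteins and chaperones. They are *hsf1*, *hsp9*, *hsp16*, *hsp90*, *hsp104*, *ssa1*, *ssa2*, *sks2*, *sti1* and *mas5*, chosen by gene name and systematic identifier out of 6986 genes in the table. Earlier results of these data were known when they were chosen. Their levels were measured by RNA-seq of total RNA in 2 libraries from a set2 deletion strain (SPKK1227, genotype set2d) and 2 from the wild type (strain WT972, called WT). All 4 libraries came from asynchronous cells in log phase, grown in YEA medium at 30 °C, and the labels name no heat shock or other treatment. Set2 is a histone H3 methyltransferase that acts on the bodies of transcribed genes. Whether the replicates are separate cultures is not stated in the labels, and p-values therefore refer only to the library-to-library spread, which may be technical.

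Chaperones bind unfolded proteins and help them fold, and many of their genes are induced when proteins misfold. In eukaryotes the heat shock factor binds the promoters of such genes, and Hsp70 with its J-domain partner holds that factor back in unstressed cells. In fission yeast the pair known for this is Ssa2 and Mas5. Small heat shock proteins hold unfolded chains, Hsp104 pulls proteins out of aggregates, and Hsp70 and Hsp90 fold client proteins with the help of co-chaperones.

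The deposited values were log2 normalized counts with a floor at 10 counts. The median gene had 5347 and 5518 normalized counts in set2d, against 5175 and 5050 in WT, and the 10 genes were far above the floor, the lowest value being 5268 for *hsp16* in WT replicate 1. The deleted gene was checked first. In set2d, *set2* had 2257 and 1448 normalized counts, against 10503 and 8665 in WT, so that the fitted log2 difference was -2.40 (SE 0.22, adjusted p by limma 0.00041). The set2d mean was thus 0.189 times the WT level on the fitted scale, well above the floor, and the labels do not say which part of the gene was deleted. Across 6633 genes tested, log2 values correlated at a Pearson r of 0.989 between the set2d libraries and 0.994 between the WT libraries, where genes are not independent replicates.

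In these unstressed cultures the chaperone genes *ssa1*, *hsp16* and *hsp104* were higher in set2d, by 2.37-fold, 2.26-fold and 1.76-fold. The regulator gene *hsf1* was lower, by 1.3-fold. The abundant genes *hsp90*, *ssa2* and *sks2*, the co-chaperone genes *sti1* and *mas5*, and *hsp9* did not pass the test. Thus 3 of the 10 genes were higher and 1 was lower (limma on log2 values, Benjamini-Hochberg adjusted p under 0.05 over all genes). Over all genes tested 11.6% were higher and 2.77% lower by that rule. The median log2 change was 0.27 over the 10 genes and 0.01 over all genes tested. The median of the 10 was 0.50 within replicate 1 and 0.08 within replicate 2, and it was 0.07 without set2d replicate 1. Within replicate here and below means between libraries of the same number. The labels do not say that a number marks a shared culture or day. Both set2d libraries lay above both WT libraries for 5 of the 10 genes and below them for 2, where 31.5% and 26.2% of all genes did so. The 3 higher calls depended on set2d replicate 1. Without that library 0 of the 10 genes passed as higher, while 4.88% of all genes did, and without set2d replicate 2 the count was 5, beside 5.34% of all genes. By limma without a trend 0 of the 10 passed, where 7.52% of all genes were higher and 1.55% lower, and with no filter on low values 0 passed, where 2.53% and 0.301% did.

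**Figure D1:**
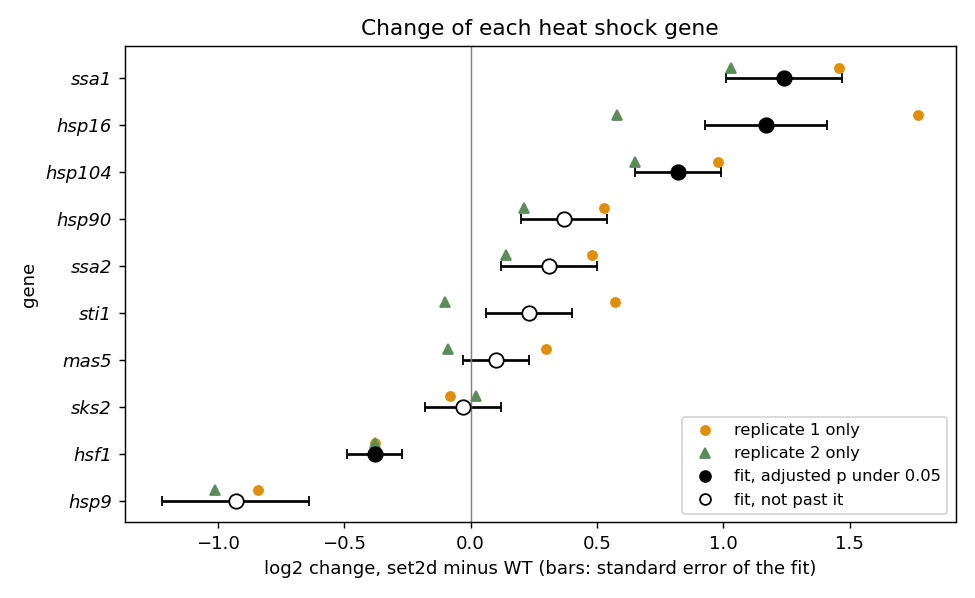
Log2 change of each of the 10 genes, set2d minus WT, on the x axis, with 1 gene per row. Black circles are fitted changes with standard errors, filled where the adjusted p is under 0.05, and small symbols are the differences within replicate 1 and within replicate 2. The genes *ssa1*, *hsp16* and *hsp104* lie farthest to the right, between 0.82 and 1.24, and *hsf1* and *hsp9* lie left of 0.

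Hsf1 is the transcription factor that drives heat shock genes and is essential for growth. The gene *hsf1* (SPAC2E12.02) had 14112 and 14605 normalized counts in the set2d libraries, against 18365 and 18964 in the WT libraries. The groups did not overlap, and the libraries of each group lay close together. The log2 change was -0.38 (SE 0.11, adjusted p by limma = 0.0497), and the difference was -0.38 in replicate 1 and also -0.38 in replicate 2. The size of the change was steady, between -0.40 and -0.35 with any 1 library left out, but the call stood just inside the threshold. Leaving out any single library ended it. The adjusted p by limma became 0.106 or 0.0706 when set2d replicate 1 or 2 was left out, and 0.274 or 0.429 when WT replicate 1 or 2 was left out. In the ASM294v3 annotation 83.4% of *hsf1* is covered by 3 genes on the opposite strand. The 1 of these with values here, the protein-coding SPAC2E12.03c, covers 12% of it and had a log2 change of -0.10 (SE 0.18, adjusted p by limma = 0.756).

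The genes of both small stress proteins varied strongly between libraries, and their changes had opposite signs. Hsp16 is a small heat shock protein that binds unfolded proteins. The gene *hsp16* (SPBC3E7.02c) had 17965 and 10681 normalized counts in set2d, against 5268 and 7162 in WT. The lower set2d library was still above the higher WT library. Means were 14323 ± 5151 in set2d and 6215 ± 1339 in WT (SD, n = 2 each), a log2 change of 1.17 (SE 0.24, adjusted p by limma = 0.0156). The difference was 1.77 on the log2 scale within replicate 1 and 0.58 within replicate 2. Without set2d replicate 1 the log2 change was 0.80 and the adjusted p by limma was 0.141, so the call was lost. No annotated gene lies opposite *hsp16*.

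Hsp9 is a small, hydrophilic stress protein related to Hsp12 of budding yeast, and its gene is known as a target of the general stress pathway. The gene *hsp9* (SPAP8A3.04c) had 45636 and 73438 normalized counts in set2d, against 81948 and 148211 in WT. Both set2d values were below both WT values, yet replicate 2 was well above replicate 1 in each strain. The log2 change was -0.93 (SE 0.29, adjusted p by limma = 0.073) and did not pass. With a replicate block it did pass (adjusted p by limma = 1.18e-10), but the labels do not say that the numbers pair the libraries. Deviations of same-numbered libraries correlated at 0.451 across genes, which are not independent. The block leaves fewer residual degrees of freedom than the 2 of the main fit, so this p-value rests largely on spread pooled over genes. The difference within replicate 1 was -0.84 and that within replicate 2 was -1.01. Leaving out 1 library at a time moved the change between -1.36 and -0.50, with an adjusted p by limma of 0.000391 without WT replicate 1. It was -0.59 without set2d replicate 1 and -0.50 without WT replicate 2. The non-coding RNA SPNCRNA.1071 overlaps 8.89% of *hsp9* on the same strand. That RNA had 3824 and 5540 normalized counts in set2d, against 7055 and 9913 in WT (log2 change -0.86, SE 0.22, adjusted p by limma = 0.0339). Reads of *hsp9* from the shared stretch may be part of these values, which was not tested. The RNA therefore does not count as a separate change. On the opposite strand another non-coding RNA covers 53.1% of *hsp9*.

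The disaggregase gene *hsp104* (SPBC16D10.08c) was higher in set2d. Hsp104 is a hexameric ATPase that threads aggregated proteins through its pore together with Hsp70. Its gene had 36892 and 26053 normalized counts in set2d, against 18646 and 16648 in WT. Every set2d value was above every WT value, and set2d replicate 1 was the highest. Means were 31473 ± 7665 in set2d and 17647 ± 1413 in WT (SD, n = 2 each), a log2 change of 0.82 (SE 0.17, adjusted p by limma = 0.0142). The differences within replicates 1 and 2 were 0.98 and 0.65. Without set2d replicate 1 the log2 change was 0.56 and the call was lost (adjusted p by limma = 0.0739). Genes on the opposite strand cover 60.3% of *hsp104*.

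Of the 3 cytosolic Hsp70 genes, 1 was higher in set2d and the other two did not pass. Ssa1 and Ssa2 are the general cytosolic Hsp70 proteins, while Sks2 is the Hsp70 that works at the ribosome on nascent chains. The gene *ssa1* (SPAC13G7.02c) had 48209 and 28636 normalized counts in set2d, against 17502 and 14049 in WT. It had the largest log2 increase of the 10 genes, 1.24 (SE 0.23, adjusted p by limma = 0.00858), and the groups did not overlap. The differences within replicates 1 and 2 were 1.46 and 1.03. Without set2d replicate 1 the log2 change was 0.87 and the call was lost, with an adjusted p by limma of 0.0718. Opposite-strand genes cover 87.2% of *ssa1*. Of them, SPNCRNA.811, which overlaps 6.08% of it, had a log2 change of 0.41 (SE 0.30, adjusted p by limma = 0.409).

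The paralogue *ssa2* (SPCC1739.13) was far more abundant per length and did not pass. It had 1052798 and 833235 normalized counts in set2d, against 755332 and 758190 in WT. Both set2d libraries were above both WT libraries, and the set2d libraries were also farther apart than the WT ones. The log2 change was 0.31 (SE 0.19, adjusted p by limma = 0.33). Leaving out set2d replicate 1 gave 0.14. Leaving out set2d replicate 2 gave 0.48, and the gene then passed (adjusted p by limma = 0.0418). The ribosome-associated *sks2* (SPBC1709.05) had 495794 and 513085 normalized counts in set2d, against 525747 and 504985 in WT. Its groups overlapped, with a log2 change of -0.03 (SE 0.15, adjusted p by limma = 0.927).

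Per kilobase of annotated transcript, *ssa2* had 22.8 and 30.3 times the level of *ssa1* in the set2d libraries, against 45.0 and 56.2 times in the WT libraries. The 2 ranges of this ratio did not overlap. The spliced transcripts of *ssa1* and *ssa2* are 82.6% identical over 1946 aligned bases, and *sks2* is 71.2% identical to *ssa2* over 1209 bases. The counting of reads that fit more than 1 gene is not described in the labels, and the part of such reads in the *ssa1* and *ssa2* values was not tested. Per kilobase, *ssa2* was 1.96 and 1.5 times *sks2* in set2d, against 1.33 and 1.39 times in WT.

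Hsp90 is an ATP-driven chaperone that matures kinases and other clients, and Sti1 hands it clients from Hsp70. The gene *hsp90* (SPAC926.04c) had 653558 and 534654 normalized counts in set2d, against 453701 and 463121 in WT. The set2d values were all above the WT values, by 0.53 on the log2 scale within replicate 1 and 0.21 within replicate 2. The log2 change of 0.37 (SE 0.17, adjusted p by limma = 0.197) did not pass. It was 0.22 without set2d replicate 1, and without set2d replicate 2 it was 0.51 and passed (adjusted p by limma = 0.0408). No annotated gene lies opposite *hsp90*.

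The co-chaperone genes did not pass, and their groups overlapped. The gene *sti1* (SPCC645.14c) had 112805 and 81330 normalized counts in set2d, against 76063 and 87241 in WT. Set2d replicate 1 was the highest library, and the strain difference had opposite signs in the replicates, 0.57 in replicate 1 and -0.10 in replicate 2. Its log2 change was 0.23 (SE 0.17, adjusted p by limma = 0.407). Leaving out set2d replicate 1 gave -0.0023, leaving out set2d replicate 2 gave 0.47, and leaving out WT replicate 1 gave 0.13. Mas5 is the main cytosolic J-domain partner of Hsp70. Its gene *mas5* (SPBC1734.11) had 117837 and 103348 normalized counts in set2d, against 95745 and 110039 in WT, and the groups overlapped. The log2 change of *mas5* was 0.10 (SE 0.13, adjusted p by limma = 0.651), with 0.30 in replicate 1 and -0.09 in replicate 2, and it was 0.0099 when set2d replicate 1 was left out. The gene *alg12* (SPBC1734.12c) overlaps 1.62% of *mas5* on the opposite strand and had a log2 change of -0.32 (SE 0.12, adjusted p by limma = 0.116).

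For description, the genes were split by level per kilobase into 2 tiers. The upper tier held *ssa2*, *sks2*, *hsp90*, *hsp9*, *mas5* and *sti1*, and the lower tier *hsf1*, *hsp16*, *ssa1* and *hsp104*. Wide gaps between neighbouring means also lay inside the upper tier. In set2d *hsp90* averaged 230095 per kb and *hsp9* 82691, and in WT *hsp9* averaged 159833 and *mas5* 52150. The most abundant, *ssa2*, averaged 411978 normalized counts per kb in set2d and 330608 in WT. Both strains had the upper tier in the order given. Of neighbours in it, *hsp90* and *sks2* had overlapping library values in set2d, at 207070 to 253121 and 234307 to 242479 per kb, while in WT they lay apart, at 175717 to 179365 and 238651 to 248463. In WT it was *hsp90* and *hsp9* whose library values overlapped.

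The order within the lower tier differed between the strains. In set2d the means were 16772 normalized counts per kb for *hsp16*, 16110 for *ssa1*, 10473 for *hsp104* and 5837 for *hsf1*, and both *hsf1* libraries were below every library of the other 3 genes. In WT the means were 7587 for *hsf1*, 7278 for *hsp16*, 6615 for *ssa1* and 5873 for *hsp104*, and the library values of each pair of neighbours overlapped. In set2d those of *hsp16* and *ssa1*, and of *ssa1* and *hsp104*, overlapped too.

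**Figure D2:**
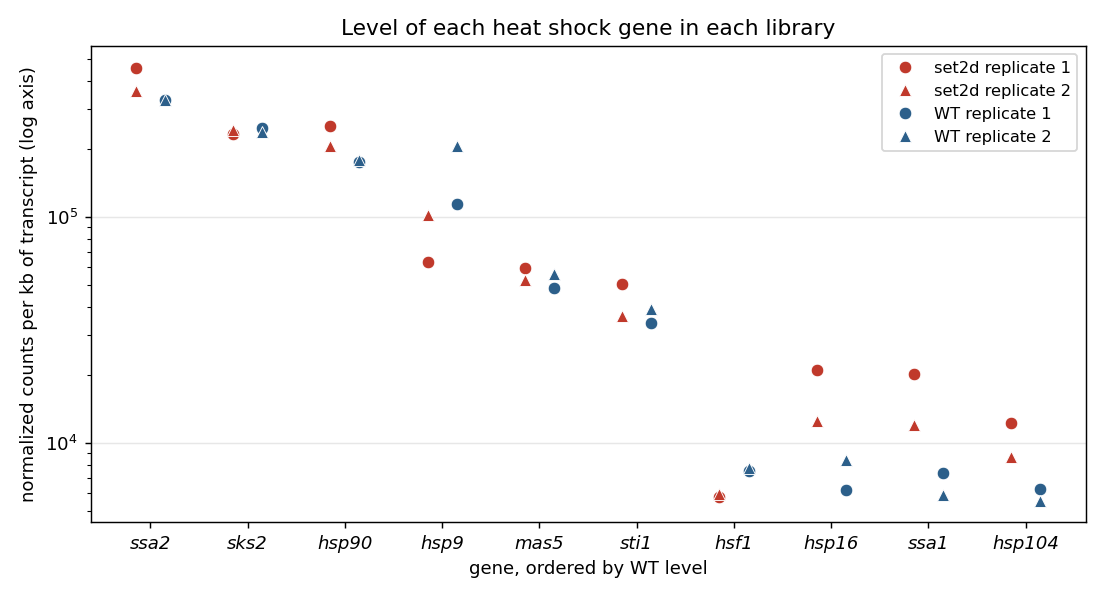
Normalized counts per kb of annotated transcript on a log axis for each of the 10 genes, ordered by WT level, with 1 symbol per library (red set2d, blue WT, circles replicate 1, triangles replicate 2). The genes *hsp16*, *ssa1*, *hsp104*, *hsp90* and *ssa2* have both red symbols above both blue ones, and *hsf1* and *hsp9* have both below.

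Together the 10 genes took 2.21% and 1.98% of all normalized counts in the set2d libraries, against 1.84% and 1.88% in the WT libraries. Most of this came from *ssa2*, *sks2* and *hsp90*, which took 1.88% and 1.68% in set2d and 1.56% and 1.52% in WT. The 3 genes that passed as higher took 0.0879% and 0.0584% in set2d, against 0.0372% and 0.0334% in WT. The shares of these libraries rest on the deposited scaling, and reads of overlapping genes may count more than once in the totals.

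The set2d libraries were far apart from each other in several of these genes. Set2d replicate 1 minus set2d replicate 2 had a median log2 difference of 0.31 over the 10 genes, and 0.00 over all genes tested. The same difference within WT was -0.04 over the 10 genes. Among 5578 genes with a mean of at least 1000 normalized counts, the absolute difference between set2d replicates had a median of 0.19 and that between WT replicates one of 0.11. In set2d the difference of *hsp16* was 0.75, above 98.1% of those genes, and that of *ssa1* was also 0.75. For *hsp104* it was 0.50, above 91.0% of them. The gene *hsp9* differed by 0.69 between set2d replicates and by 0.85 between WT replicates, above 97.3% and 99.7% of those genes. By contrast, *hsf1* and *sks2* each differed by 0.05 between set2d replicates. In both strains *hsp9* was higher in replicate 2 and *ssa1* and *hsp104* were higher in replicate 1, while *hsp16* was higher in replicate 1 of set2d and in replicate 2 of WT.

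**Figure D3:**
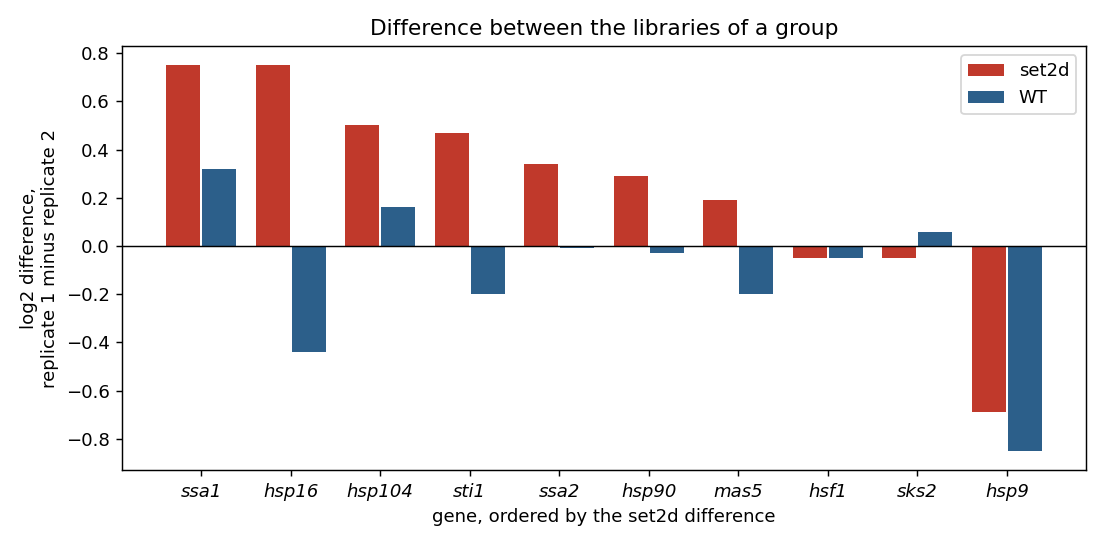
Log2 difference between the 2 libraries of a strain, replicate 1 minus replicate 2, for each of the 10 genes (bars, red set2d, blue WT). Set2d replicate 1 exceeds set2d replicate 2 by 0.75 for *ssa1* and *hsp16*, and *hsp9* lies below 0 in both strains.

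The genes lie on all 3 chromosomes and all are more than 100 kb from the chromosome ends in the ASM294v3 annotation. In that annotation 8 of the 10 overlap a gene on the opposite strand and 2 do not. The strand setting of the counting is not described in the labels. The J-domain gene *xdj1*, picked after its values were seen, lies wholly opposite the non-coding SPNCRNA.1582. It had 7484 and 7532 normalized counts in set2d, against 6667 and 6979 in WT, and SPNCRNA.1582 had 7485.7 and 7553.0 in set2d, against 6677.7 and 6989.2 in WT. The values of this pair nearly coincide in each library, as they would if reads counted for both genes whatever their strand. More pairs, also picked after their values were seen, nearly coincided. In set2d replicate 1, *wis2* had 146259 and its partner SPNCRNA.1036 146393.0, and *cct5* had 46750 and SPNCRNA.730 46816.5. For *cct2*, which also lies wholly opposite its partner SPAC1D4.05c, the values there were 38373 and 42365.2. The pair of *jac1* did not show this. The gene SPAC144.09c lies wholly opposite *jac1* and had 6598.9 and 6145.6 in set2d and 5543.3 and 5667.2 in WT. The *jac1* values were lower, at 1801 and 1505 in set2d and 2467 and 2240 in WT. How reads were assigned by strand was not tested. Where the values of a gene and its opposite-strand partner nearly coincide in this way, their changes cannot be told apart. Partners that overlap only slightly can differ, as *aha1* (0.58) and SPBC1711.09c (-0.46) did, with 0.686% of *aha1* shared. Among the higher genes, *hsp16* has no opposite-strand partner and *ssa1* and *hsp104* have.

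Other chaperone genes were read from 6 lists named by function, of which 48 of 54 genes were matched to the table. These lists too were chosen with earlier results of these data known. Of these 48, 6 were higher in set2d and 0 lower (limma adjusted p under 0.05), where 11.6% and 2.77% of all genes were, so the share that was higher is near that of all genes. There were 11 and 2 at an unadjusted p under 0.05, beside 18.6% and 9.62% of all genes. Without set2d replicate 1, 0 of them were higher, and limma without a trend called 1 of them lower. By limma without a trend only *hsp20* and *fes1* of the 48 stayed higher, where 7.52% of all genes were. With no filter only *mge1* did, where 2.53% of all genes did. The median log2 change of the 48 was 0.06, beside 0.01 over all genes.

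Of 7 other small heat shock, Hsp31 and ubiquitin genes 2 were higher and 0 lower, with a median log2 change of 0.08. The small heat shock gene *hsp20* had 15165 and 15086 normalized counts in set2d, against 7427 and 9484 in WT (log2 change 0.85, SE 0.14, adjusted p by limma = 0.00561). Unlike *hsp16*, it had nearly equal values in both set2d libraries, and its log2 change was 0.85 without either of them, though the call was then lost. The Hsp31 family gene *hsp3104* had 9475 and 7207 in set2d, against 4430 and 4921 in WT (log2 change 0.82, SE 0.16, adjusted p by limma = 0.0125), a call lost without set2d replicate 1. Another member of that family, *hsp3102*, was singled out after its values were seen. It had 643.6 and 607.9 in set2d, against 1101 and 1013 in WT, and the groups did not overlap. Its log2 change of -0.76 (SE 0.22, adjusted p by limma = 0.0521) did not pass. It did pass as lower under quantile normalization, median centring, log2 of value plus 50 and limma without a trend, at adjusted p by limma of 0.0302, 0.0357, 0.0472 and 0.0311. The non-coding SPNCRNA.613 overlaps 63.9% of *hsp3102* on the opposite strand, with 89.1% of its own length. Its log2 change was also -0.76 (SE 0.24, adjusted p by limma = 0.069) and did not pass. Whether both genes count the same reads was not tested, so the pair does not count as 2 separate changes.

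Of 10 co-chaperones of Hsp90 and Hsp70, 2 were higher and 0 lower, with a median of 0.24. Fes1 exchanges the nucleotide of Hsp70. The gene *fes1* had 34768 and 28904 normalized counts in set2d, against 17840 and 19881 in WT (log2 change 0.75, SE 0.13, adjusted p by limma = 0.00643), and this call was lost without set2d replicate 1. Aha1 stimulates the ATPase of Hsp90. The gene *aha1* had 49404 and 36128 in set2d, against 27631 and 28805 in WT (log2 change 0.58, SE 0.15, adjusted p by limma = 0.0378). Its change was 0.36 without set2d replicate 1, and its call was lost when that library or either WT library was left out. It was lost as well under quantile normalization and median centring (adjusted p by limma = 0.0716 and 0.0724). Of 11 J-domain genes besides *mas5*, 1 was higher and 0 lower, with a median of 0.00. This was *psi1*, for a relative of the budding yeast J-domain protein Sis1, with 33877 and 25132 in set2d against 19045 and 20401 in WT (log2 change 0.57, SE 0.15, adjusted p by limma = 0.04). Its change was 0.35 without set2d replicate 1, and leaving out that library or either WT library ended the call, as did quantile normalization and median centring (adjusted p by limma = 0.0777 and 0.0765).

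Chaperones of organelles and of the chaperonin complex were read as short lists. Over all genes, 11.6% were higher and 2.77% lower by the adjusted p, and 18.6% and 9.62% by the unadjusted p. With 6 to 8 genes in each list, counts of 0 or 1 do not set a list apart from these shares. Of 6 mitochondrial genes 1 was higher and 0 lower, with a median log2 change of 0.39. All 6 changes were positive, and by the unadjusted p 3 genes were higher and 0 lower. The gene that passed after adjustment was *mge1*, for the nucleotide exchange factor of mitochondrial Hsp70. It had 32094 and 31471 in set2d against 23066 and 23136 in WT (log2 change 0.46, SE 0.10, adjusted p by limma = 0.0206). Leaving out any 1 library ended that call, while the change stayed between 0.45 and 0.47. The mitochondrial relative of *hsp104*, *hsp78*, was singled out after its values were seen. It had 38582 and 22879 in set2d, against 18404 and 16783 in WT, and did not pass (log2 change 0.76, adjusted p by limma = 0.052). With a replicate block 3 of the 6 mitochondrial genes were higher, among them *hsp78* (adjusted p by limma = 5.25e-10). Leaving out set2d replicate 1 gave a change of 0.38 for *hsp78*. Leaving out set2d replicate 2 gave 1.13 (adjusted p by limma = 0.0321), and leaving out WT replicate 1 gave 0.82 (0.0237), which both passed. Of 6 endoplasmic reticulum genes 0 passed in either direction. The count was also 0 at an unadjusted p under 0.05 and without limma's trend, and the median was -0.15. With a replicate block 2 were lower, among them *pdi1* (adjusted p by limma = 0.0257). The labels do not say that the numbers pair the libraries, and deviations of same-numbered libraries correlated at 0.451 across genes. The smallest p there belonged to *pdi1*, for a protein disulfide isomerase, at a log2 change of -0.35 (SE 0.16, adjusted p by limma = 0.194), and at -0.13 without set2d replicate 1. The 8 genes of the CCT chaperonin, which folds actin and tubulin, lay between -0.11 and 0.13, and 0 passed by the same 3 criteria. The smallest p belonged to *cct1*, at 0.13 (SE 0.11, adjusted p by limma = 0.508).

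**Figure D4:**
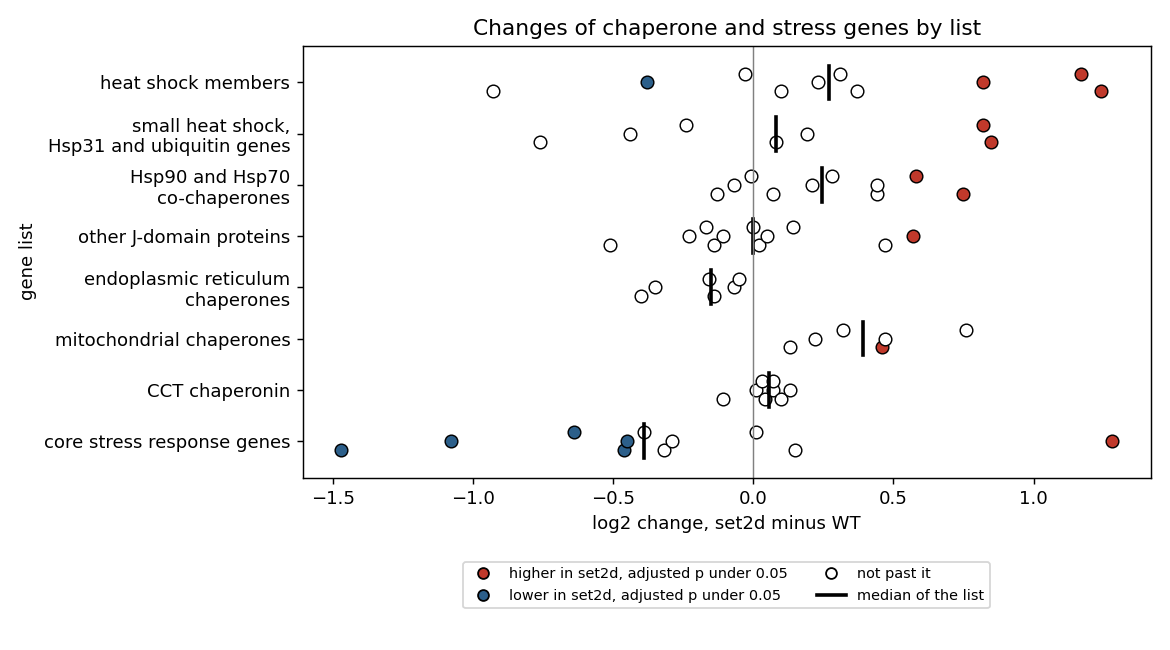
Log2 change, set2d minus WT, of each gene in the 10 heat shock genes and 7 further lists, with 1 list per row, filled circles for genes past an adjusted p of 0.05 (red higher, blue lower in set2d) and a bar at the list median. The CCT genes lie within -0.11 to 0.13, and the core stress genes reach from -1.47 to 1.28 with a median of -0.39.

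Of 11 general stress response genes 5 were lower and 1 higher in set2d, where 2.77% and 11.6% of all genes were, with a median log2 change of -0.39. By limma without a trend 1 was lower and 1 higher, and with no filter 0 were either. The list leaves out *hsp9*, and it was chosen with earlier results of these data known. The metallothionein gene *zym1* had 1058 and 453.6 normalized counts in set2d, against 2056 and 1801 in WT (log2 change -1.47, SE 0.36, adjusted p by limma = 0.0307), and its change was -0.86 and not past the threshold without set2d replicate 2. The gene *rds1* had 28763 and 36418 in set2d, against 64930 and 72459 in WT (log2 change -1.08, SE 0.14, adjusted p by limma = 0.00182). An opposite-strand gene, SPAC343.20, overlaps 88.8% of *rds1*, with 28181.9 and 34963.2 in set2d against 62142.3 and 69142.7 in WT, and its log2 change was -1.06. These values nearly coincide with those of *rds1*, so the pair does not count as 2 separate changes. The exception was the sulfiredoxin gene *srx1*, with 1979 and 1921 in set2d against 868.5 and 737.2 in WT (log2 change 1.28, SE 0.20, adjusted p by limma = 0.00425). The *srx1* call was lost without either set2d library, and an opposite-strand non-coding RNA covers 91.1% of it. The other 3 lower genes, named after their values were seen, were *gpd1*, *gpx1* and *pcr1*, at -0.64, -0.45 and -0.46. With 1 library left out, the count lower in this list was 1 where set2d replicate 2 was missing and 2 in each other case.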

How the data were processed

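Total RNA of 2 set2d and 2 WT libraries was sequenced. The submitters' processing notes name the aligner STAR (2.5.4b), the read counter featureCounts (1.5.0-p1) and the genome build ASM294v2. Their normalization method, annotation and strand setting are not described in the labels. The deposited log2 values are, judged from the values, log2 of normalized counts with a floor at 10. In set2d replicate 1 the step of 1 read could be seen. All of 684 low values (100%) were whole multiples of 1.06, to within 0.012, against 2.26% by chance. The lowest of the 10 genes there has 13287 reads, a counting error of 0.868%. In set2d replicate 2, WT replicate 1 and WT replicate 2 the best single step held for only 64.2%, 40.1% and 26.3% of low values (4.39%, 1.74% and 3.58% by chance), so whole counts were not recovered there and the depth is unknown.

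The 10 genes and the lists were chosen with earlier results of these data known. Limma 3.58.1 (R 4.3.3), with a mean-variance trend and tested on simulated data, was run on the deposited log2 values of 6633 genes that exceeded the floor in 2 or more libraries, leaving out 353. Tests were two-sided, with p-values adjusted over all genes by Benjamini-Hochberg and called under 0.05. Residual degrees of freedom were 2 and prior ones 6.16. Changes are set2d minus WT, and fold values are their antilog. Named genes were all 10 members, *set2*, overlapping opposite-strand genes and, of each list, up to 3 past the threshold with the largest change, or else the smallest p. Names, transcript lengths and overlaps came from the ASM294v3 annotation. Because its build differs from the authors' build, no coordinates are given. Of 65 list genes 59 were matched. Copies were sought with BLAST 2.17.0. Alternatives were other filters, scalings, a pseudocount, limma without a trend, a replicate block and leaving out each library.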

Additional observations from a re-analysis of the deposited data

How the results depend on the processing

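The direction of the 10 genes held in every alternative run except *sti1*, which ran from -0.0023 without set2d replicate 1 to 0.47 without set2d replicate 2, and the scalings moved the median of all genes by under 0.1 on the log2 scale. The calls were less stable. Of the 10 genes, 0 were higher and 0 lower with no filter and also by limma without a trend, 5 higher without set2d replicate 2, and with single libraries left out the counts ranged from 0 to 5 higher and from 0 to 1 lower. With a mean level of at least 50, 0 were lower, *hsf1* being at an adjusted p of 0.0501. Of the other 59 chaperone and stress genes, 7 were higher and 5 lower, against 1 and 0 with no filter and 3 and 2 by limma without a trend, and with single libraries left out 0 to 7 were higher and 1 to 2 lower. Of all genes, 767 were higher and 184 lower, against 177 and 21 with no filter and 499 and 103 by limma without a trend. The count lower was 282 under quantile normalization and 343 under median centring, where 579 and 617 were higher. With single libraries left out it was 324 to 488 higher and 45 to 86 lower. The cause was not tested. Leaving out a library leaves a lone one in its group, assumed to vary like the other group, and lowers power.

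The groups share replicate numbers 1 and 2, but the labels do not say that a number marks a shared culture or day. Same-numbered libraries also have a common start to their titles, left unexplained there. Deviations of same-numbered libraries correlated at 0.451 across genes. With a replicate block 3 of the 10 genes were higher and 2 lower, *hsp9* being the added one (limma adjusted p = 1.18e-10). Of the endoplasmic reticulum genes 2 were lower, among them *pdi1* (limma adjusted p = 0.0257), and *hsp3102* was lower (0.000423). Of the mitochondrial genes 3 were higher, among them *hsp78* (limma adjusted p = 5.25e-10). Of the other chaperone and stress genes 12 were higher and 11 lower, and of all genes 1380 and 847 were. The block leaves fewer residual degrees of freedom than the 2 of the main fit. Its p-values thus rest largely on spread pooled over genes. Depth does not limit the 10 genes in the library where it is known.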
